A study of Mus musculus with 12 samples.

Results

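DNA methylation is written by the DNA methyltransferases DNMT1, DNMT3A and DNMT3B, kept in place through cell division by UHRF1, and removed through oxidation by the TET enzymes. The genes of this machinery were chosen by symbol, as the rows of both deposited count tables named Dnmt1, Uhrf1, Dnmt3a, Dnmt3b, Tet1, Tet2 or Tet3. Of these 7 genes, 6 were analysed, out of 16699 genes listed both for unstimulated and for lipopolysaccharide (LPS)-stimulated cells, and Tet1 was not analysed here. The samples were 12 RNA-seq libraries of J774A.1, a mouse macrophage cell line, in 4 groups of 3. Unstimulated WT cells, unstimulated ACAT1 KO cells, WT cells given LPS and ACAT1 KO cells given LPS were compared, where LPS is a bacterial ligand of TLR4 given at 100 ng/ml for 2 h. All lines had received a Cas9 and GFP plasmid. In the WT lines it carried no guide, and in the ACAT1 KO lines it carried a guide to the fourth exon of Acat1, the gene of a mitochondrial enzyme that releases acetyl-CoA late in fatty acid oxidation. Few GFP-sorted cells were plated per well, and the paper describes the lines as clonal populations from single cells. Each line thus stands for the descendants of few cells or of a single cell. Differences between single lines enter every comparison of genotypes.

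DNMT1 copies methylation onto new DNA strands after replication, and UHRF1 recognises the half-methylated sites and brings DNMT1 to them. DNMT3A and DNMT3B place methylation on sites that had none. TET2 and TET3 oxidise 5-methylcytosine with 2-oxoglutarate as a co-substrate, after which the oxidised base is lost at replication or cut out by repair enzymes, and TET2 is well known in myeloid cells as a gene whose loss alters inflammation and blood formation.

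The promoter sequences of the genes whose levels moved most are shown first, from RefSeq windows on GRCm38.p6 that run from 250 bases before to 50 bases after a start site. All 7 symbols matched a window. Tet2, on the minus strand, is shown for its density of CpG, the dinucleotide that DNA methyltransferases act on. Its window held 57 CpG, more than 99.8% of all windows, where the median was 7. The 250 bases before the start site, at chr3:133544391-133544640 and written 5′ to 3′ on the strand of the gene with each CpG in capitals, hold 51 of them.
Tet2: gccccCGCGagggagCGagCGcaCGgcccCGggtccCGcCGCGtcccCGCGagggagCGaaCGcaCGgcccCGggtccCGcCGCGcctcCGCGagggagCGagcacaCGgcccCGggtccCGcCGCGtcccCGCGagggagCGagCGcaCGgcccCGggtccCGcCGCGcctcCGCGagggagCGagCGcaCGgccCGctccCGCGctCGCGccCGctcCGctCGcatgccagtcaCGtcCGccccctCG
The stretch is repetitive, with 77.9% of bases the same as the base 42 positions further on. Neither form of the E2F motif (TTTCGCGC or TTTGGCGC), nor the NF-kB motif GGANTTTCC, the interferon motif GAAANNGAA or the AP-1 motif TGANTCA, searched on both strands, was found in the Tet2 window, which says only that these letters are not in it.

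Dnmt1 and Uhrf1 are shown for the E2F motif, named for factors known to control genes of DNA replication. Of 3 windows of Dnmt1, the one with its start site at 20952623 on chromosome 9 held both forms, TTTCGCGC on the other strand 219 bases before the start site and TTTGGCGC on the strand of the gene from 33 bases after it. Of 2 windows of Uhrf1, the one with its start site at 56304313 on chromosome 17 held TTTCGCGC 185 bases before it. The sites are written 5′ to 3′ on the strand of the gene, with the motif, or its reverse complement where it lies on the other strand, in capitals.
Dnmt1, chr9:20952824-20952853, minus strand: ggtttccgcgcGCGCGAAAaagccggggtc
Dnmt1, chr9:20952574-20952601, minus strand: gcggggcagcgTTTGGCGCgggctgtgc
Uhrf1, chr17:56304117-56304146, plus strand: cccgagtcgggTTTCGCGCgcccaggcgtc
Either form of the motif was found in 0.813% of 32851 windows and in 0.929% of 27025 genes with a window. Of 18 genes with a window in a list of S phase and proliferation genes, 6 held it, among them Mcm5, Mcm6 and Cdt1. The other window of Uhrf1 held the NF-kB motif on the other strand, which 1.25% of windows hold, and no window of Dnmt3a, Dnmt3b or Tet3 held any of the motifs searched. A match is a description of the letters and was not tested as a binding site.

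The libraries held 56948593 to 167280149 counts each. Acat1, the targeted gene, was counted at 108, 107 and 80.8 CPM (counts scaled to library size by the TMM method) in the unstimulated WT lines and at 28.9, 25.5 and 26.1 CPM in the ACAT1 KO lines. After LPS it was 85.4, 95.4 and 65 CPM in WT lines and 19.9, 18.5 and 18.9 CPM in ACAT1 KO lines, so the groups did not overlap in either state. All 10 macrophage markers were counted, with a summed level of 8828 to 11574 CPM per library, against at most 13 CPM for the markers of fibroblasts and 11.1 CPM for those of T cells. The unstimulated libraries of WT lines 1 and 2 and ACAT1 KO line 2 had 0.107%, 0.12% and 0.129% of their counts in noncoding genes overlapping exons on the opposite strand, where no other library exceeded 0.0937%, and are referred to as the libraries with more other-strand counts.

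Levels of different genes were compared per kilobase of exon. In unstimulated WT cells Uhrf1 stood at 47.6 ± 5.15 CPM per kilobase (SD, n = 3) and Dnmt1 at 40.5 ± 4.9, and the ranges of these neighbours in the order overlapped. Tet3 followed at 5.22 ± 0.67 and Dnmt3a at 4.18 ± 0.642 CPM per kilobase, with ranges that overlapped each other but not those of Dnmt1. Tet2 at 1.58 ± 0.191 and Dnmt3b at 1.49 ± 0.193 CPM per kilobase were the lowest and overlapped. The maintenance pair was thus the most abundant part of the machinery, and the order in unstimulated ACAT1 KO cells differed from this only in the last 2 genes, Dnmt3b at 1.49 ± 0.13 and Tet2 at 1.32 ± 0.131 CPM per kilobase, whose ranges overlapped. After LPS Tet2 stood next below Dnmt1 in both genotypes, at 8.48 ± 0.194 CPM per kilobase in WT and 8.01 ± 0.702 in ACAT1 KO cells, above Tet3 with no overlap.

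**Figure D1:**
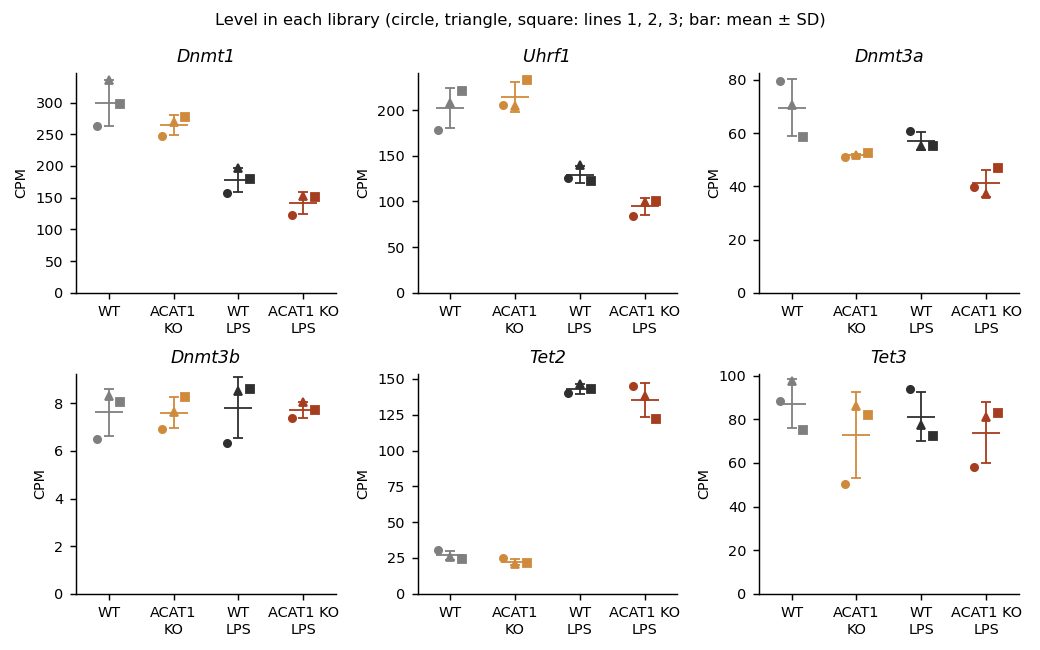
Level of each gene in CPM (linear axes from 0) in each of the 12 libraries, with circles, triangles and squares for lines 1, 2 and 3 of a genotype and bars for the mean and SD of 3 lines. Tet2 in all 6 LPS libraries, from 122 to 146 CPM, lies far above the unstimulated libraries, Dnmt1 and Uhrf1 lie below them with LPS, and Tet3 of ACAT1 KO line 1 is low in both states.

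The first question was how the machinery stood 2 h after LPS. Tet2 rose about as strongly in both genotypes while the maintenance genes Dnmt1 and Uhrf1 and the de novo gene Dnmt3a fell, and no change was called for Dnmt3b or Tet3. In WT cells 4 of 6 genes passed an adjusted p of 0.05, 1 higher and 3 lower, where 57.4% of 16535 genes tested passed, 29.3% higher and 28% lower. In ACAT1 KO cells the same counts were 4 of 6, 1 higher and 3 lower, where 60.7% of genes passed, 29.5% higher and 31.2% lower. With most genes passing, a count of 4 of 6 is near the background. The median log2 fold change of the 6 genes was -0.19 in WT and -0.15 in ACAT1 KO cells, beside -0.018 and -0.026 over all genes tested. Changes in RNA of these bulk samples cannot tell fewer expressing cells from less RNA per cell.

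Tet2 (chromosome 3, 133463679 to 133545139, minus strand, GRCm38) was 30.3, 25.6 and 24.2 CPM in the unstimulated WT lines 1, 2 and 3 and 139.8, 146 and 143 CPM in the same lines with LPS. In ACAT1 KO lines it was 24.8, 20.7 and 21.4 CPM without stimulation and 145, 138 and 122 CPM with LPS. Every LPS library lay above every unstimulated library, as they did for 31.4% of genes in WT and 33.2% in ACAT1 KO cells, and the LPS levels of the genotypes overlapped. The change was 5.36-fold between the means in WT cells, with a log2 fold change of 2.42 (SE 0.101, adjusted p = 3.43e-09 by the quasi-likelihood test of edgeR, adjusted by Benjamini and Hochberg). In ACAT1 KO cells it was 6.05-fold, with a log2 fold change of 2.60 (SE 0.102, adjusted p = 1.73e-09 by the same test). Single lines changed by 2.21 to 2.56 on the log2 scale in WT and by 2.51 to 2.74 in ACAT1 KO cells, ranges that overlapped. The genotypes differed in this response by 0.17 (SE 0.136, adjusted p = 0.822 by the same test of the interaction). The median over the 40 tested genes nearest to Tet2 was -0.20 in WT cells on the log2 scale, and 38 of them lay below Tet2.

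Dnmt1 (chromosome 9, 20907209 to 20959888, minus strand), the maintenance methyltransferase, was 263, 336 and 297 CPM in the unstimulated WT lines and 158, 196 and 179.7 CPM with LPS. In ACAT1 KO lines it was 247, 270.0 and 278 CPM without stimulation and 122, 152 and 152 CPM with LPS. No LPS library reached an unstimulated library of its genotype, as for 29.6% of genes in WT and 34.6% in ACAT1 KO cells. The mean fell by 40.4% in WT cells (log2 fold change -0.75, SE 0.113, adjusted p = 1.25e-04 by edgeR's quasi-likelihood test) and fell by 46.4% in ACAT1 KO cells (log2 fold change -0.90, SE 0.114, adjusted p = 2.57e-05 by the same test). The single lines gave -0.73 to -0.77 on the log2 scale in WT and -0.83 to -1.02 in ACAT1 KO cells.

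Uhrf1 (chromosome 17, 56303321 to 56323486, plus strand), which brings DNMT1 to newly copied DNA, was 179, 208 and 221 CPM in the unstimulated WT lines and 126, 139.5 and 122 CPM with LPS. In ACAT1 KO lines it was 205, 204 and 233 CPM without stimulation and 83.8, 99.8 and 100.4 CPM with LPS. The unstimulated and LPS libraries did not overlap in either genotype, and the ACAT1 KO libraries with LPS were the lowest of all 12. The log2 fold change was -0.65 (SE 0.0988, adjusted p = 1.24e-04 by edgeR's quasi-likelihood test) in WT and -1.18 (SE 0.0998, adjusted p = 8.17e-07 by the same test) in ACAT1 KO cells.

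Line by line, Uhrf1 changed by -0.51, -0.58 and -0.86 on the log2 scale in WT lines 1, 2 and 3 and by -1.29, -1.03 and -1.21 in ACAT1 KO lines, so each ACAT1 KO line lay below each WT line, as for 13.5% of 16504 genes. The responses of Dnmt1 were separated in the same way, with a difference of -0.15 (SE 0.159, adjusted p = 0.895 by edgeR's quasi-likelihood test of the interaction). For Uhrf1 the difference between the responses was -0.53 (SE 0.139), with an unadjusted p of 0.00283 and an adjusted p of 0.176 in edgeR's quasi-likelihood test of the interaction, and did not pass. None of the 6 genes passed this test, where 0.187% of genes did, 0.0484% higher and 0.139% lower, or 31 genes, against 288 with the line as a block. Only Uhrf1 had an unadjusted p under 0.05, where 8.92% of genes did, and limma-voom called 0 of the 6. With the line as a block the adjusted p of Uhrf1 was 0.0595, and it passed with DESeq2 (-0.51, adjusted p = 0.0373) and with the block together with a term for the libraries with more other-strand counts (-0.44, adjusted p = 0.0113 by edgeR).

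**Figure D2:**
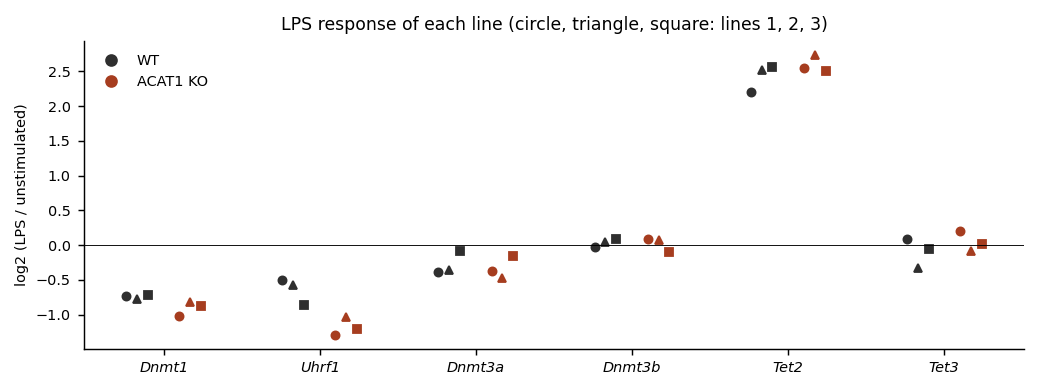
Change of each gene with LPS in each line, as log2 of the ratio of CPM with LPS to CPM without, for 3 WT lines (black) and 3 ACAT1 KO lines (red). Tet2 lies between 2.21 and 2.74 in all 6 lines, and the 3 ACAT1 KO lines lie below the WT lines for Uhrf1, from -1.29 to -1.03 against -0.86 to -0.51, and for Dnmt1, from -1.02 to -0.83 against -0.77 to -0.73.

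Dnmt3a (chromosome 12, 3806007 to 3914443, plus strand), a de novo methyltransferase, was 79.7, 70.7 and 58.4 CPM in the unstimulated WT lines and 60.9, 55 and 55.2 CPM with LPS, groups that overlapped. In ACAT1 KO lines it was 51.2, 51.7 and 52.4 CPM without stimulation and 39.7, 37.1 and 46.9 CPM with LPS, groups that did not overlap. The log2 fold change was -0.29 (SE 0.109, adjusted p = 0.0399 by edgeR's quasi-likelihood test) in WT and -0.33 (SE 0.109, adjusted p = 0.021 by the same test) in ACAT1 KO cells. The call in WT cells was lost with a term for the libraries with more other-strand counts (-0.16, adjusted p = 0.295 by edgeR), among them WT lines 1 and 2, and the antisense gene Dnmt3aos overlaps 0.799% of the exon bases of Dnmt3a. It was also lost in 6 of 12 fits without a library. The call in ACAT1 KO cells was lost in 3 of 12 such fits, without the unstimulated library of ACAT1 KO line 3 or the LPS library of ACAT1 KO line 1 or 2, with an adjusted p of up to 0.0887 by edgeR.

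Dnmt3b (chromosome 2, 153649450 to 153687730, plus strand), the other de novo methyltransferase, was low throughout, from 6.35 to 8.59 CPM over the 12 libraries. All 4 groups overlapped, with means of 7.62 ± 0.984, 7.61 ± 0.663, 7.82 ± 1.27 and 7.72 ± 0.325 CPM (SD, n = 3) in unstimulated WT, unstimulated ACAT1 KO, WT LPS and ACAT1 KO LPS cells. Line 1 was the lowest of its group in each of them. The log2 fold change with LPS was 0.04 (SE 0.133, adjusted p = 0.832 by edgeR's quasi-likelihood test) in WT and 0.02 (SE 0.133, adjusted p = 0.91 by the same test) in ACAT1 KO cells, with signs that turned under upper-quartile scaling, which moved the median of all genes from -0.018 to -0.226 in WT and from -0.026 to -0.175 in ACAT1 KO cells.

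Tet3 (chromosome 6, 83362373 to 83459084, minus strand), the second TET enzyme measured, was 88.6, 97.6 and 75.3 CPM in the unstimulated WT lines and 94.1, 77.2 and 72.5 CPM with LPS. The LPS and unstimulated libraries overlapped in both genotypes. The log2 fold change was -0.10 (SE 0.199, adjusted p = 0.693 by edgeR's quasi-likelihood test) in WT and 0.02 (SE 0.198, adjusted p = 0.924 by the same test) in ACAT1 KO cells. The second direction turned under upper-quartile scaling and with offsets for gene length and GC content.

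**Figure D3:**
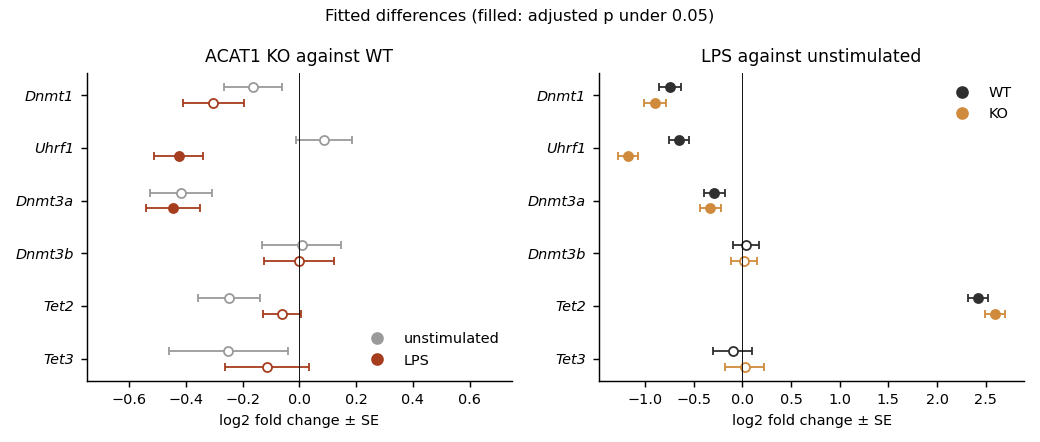
Fitted log2 fold changes with SE for the 6 genes, ACAT1 KO against WT in each state (left) and LPS against unstimulated in each genotype (right), with filled points for an adjusted p under 0.05. Uhrf1 at -0.43 and Dnmt3a at -0.45 are filled on the left, both after LPS, and Tet2 at 2.42 and 2.60 stands alone on the right.

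The second question was how loss of ACAT1 bore on these genes in each state. Without stimulation none of the 6 genes passed an adjusted p of 0.05 in edgeR's quasi-likelihood test, where 1.91% of 16440 genes did, 0.742% higher and 1.17% lower. Only Dnmt3a had an unadjusted p under 0.05, where 19.7% of genes did, DESeq2 called 1 gene, also Dnmt3a, and limma-voom called 0. With LPS 2 of 6 passed, Uhrf1 and Dnmt3a, both lower in ACAT1 KO cells, where 15.1% of 16483 genes passed, 5.93% higher and 9.12% lower. The medians of the 6 log2 fold changes were -0.21 in both states, beside 0.0035 without stimulation and -0.0041 with LPS over all genes tested. The LPS libraries compared here also entered the responses to LPS above, so these are not separate measurements.

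Uhrf1 was 203 ± 21.9 CPM (SD, n = 3) in unstimulated WT and 214 ± 16.3 CPM in ACAT1 KO cells, which overlapped (log2 fold change 0.09, SE 0.0989, adjusted p = 0.692 by edgeR's quasi-likelihood test). With LPS it was 129 ± 9.31 CPM in WT and 94.6 ± 9.4 CPM in ACAT1 KO cells. The 3 ACAT1 KO libraries all lay below the 3 WT libraries there, as for 22.2% of the genes of both tables. The log2 fold change was -0.43 (SE 0.0861, adjusted p = 0.0179 by the same test), and it kept the call in 5 of 6 fits without a library, with -0.36 (adjusted p = 0.0596) without WT line 2.

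Dnmt1 was 299 ± 36.2 CPM (SD, n = 3) in unstimulated WT and 265 ± 15.7 CPM in ACAT1 KO cells, which overlapped (log2 fold change -0.16, SE 0.101, adjusted p = 0.43 by edgeR's quasi-likelihood test). With LPS it was 178 ± 19.1 CPM in WT and 142 ± 17.2 CPM in ACAT1 KO cells, with each ACAT1 KO library below each WT library. The log2 fold change of -0.30 (SE 0.107, adjusted p = 0.0947 by the same test) did not pass, and passed without WT line 1 (-0.38, adjusted p = 0.0454).

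Dnmt3a was lower in each ACAT1 KO library than in any WT library of its state, as were 13.3% of the genes of both tables without stimulation and 22.2% with LPS. The unstimulated WT lines averaged 69.6 ± 10.7 CPM (SD, n = 3) and the ACAT1 KO lines 51.8 ± 0.582 CPM (log2 fold change -0.42, SE 0.11, unadjusted p = 0.0068, adjusted p = 0.108 by edgeR's quasi-likelihood test). It passed with all 12 libraries in a single fit, with DESeq2 (-0.42, adjusted p = 0.00626) and without WT line 3. Among libraries with more other-strand counts the difference was -0.54 (2 WT, 1 ACAT1 KO) and among the others -0.17 (1 WT, 2 ACAT1 KO). With LPS it was 57 ± 3.32 CPM in WT and 41.2 ± 5.06 CPM in ACAT1 KO cells (log2 fold change -0.45, SE 0.0951, adjusted p = 0.0212 by edgeR's quasi-likelihood test). This call was lost with offsets for gene length and GC content (-0.29, adjusted p = 0.082), and without ACAT1 KO line 1 (-0.42, adjusted p = 0.0736), ACAT1 KO line 2 (-0.37, adjusted p = 0.0714) or WT line 2 (-0.47, adjusted p = 0.05, just over the threshold).

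The chromosome of Dnmt3a moved with it. With LPS the other 583 genes tested on chromosome 12 gave a median of -0.28 for ACAT1 KO against WT cells on the log2 scale, and the 29 genes nearest to Dnmt3a, up to 20 on each side, had a median of -0.43, with 13 called lower and 1 higher. Dnmt3a at -0.45 was lower than this chromosome median by 0.17, and 28.5% of the chromosome's genes lay below it. Without stimulation the median was -0.26 for the chromosome and -0.29 for the neighbours, beside -0.42 for Dnmt3a. Dnmt3b lay on a part of chromosome 2 that moved the other way. The 40 genes nearest to it had a median of 0.31 without stimulation and 0.22 with LPS, and the 711 genes from 90 Mb on had a median of 0.28 with LPS. Dnmt3b itself had a log2 fold change of 0.01 (SE 0.138, adjusted p = 0.986 by edgeR's quasi-likelihood test) without stimulation and -0.001 (SE 0.125, adjusted p = 0.998 by the same test) with LPS. Its sign turned between settings in both states. With LPS its value less the median of its chromosome was -0.19, and 25.7% of the chromosome's genes lay below it, much as for Dnmt3a. The 2 genes differed beside their neighbours. With LPS 4 of the 40 genes nearest to Dnmt3b lay below it, and 14 of the 29 nearest to Dnmt3a lay below Dnmt3a. The part of these chromosome shifts in the genotype differences was not tested.

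Tet2 was 26.7 ± 3.22 CPM (SD, n = 3) in unstimulated WT and 22.3 ± 2.22 CPM in ACAT1 KO cells, which overlapped (log2 fold change -0.25, SE 0.11, adjusted p = 0.272 by edgeR's quasi-likelihood test). With LPS its level was 143 ± 3.27 CPM in WT and 135 ± 11.8 CPM in ACAT1 KO cells (log2 fold change -0.06, SE 0.0674, adjusted p = 0.577 by the same test). That sign turned with offsets for gene length and GC content. The genes on each side of Tet2 had medians of 0.0035 and 0.086 in these comparisons.

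Tet3 was 50.2, 86.1 and 81.9 CPM in the unstimulated ACAT1 KO lines 1, 2 and 3 and 58, 81 and 82.8 CPM in the same lines with LPS. Line 1 was low in both states while lines 2 and 3 lay within the range of the WT lines. The difference from WT was -0.25 (SE 0.209, adjusted p = 0.576 by edgeR's quasi-likelihood test) without stimulation and -0.11 (SE 0.148, adjusted p = 0.644 by the same test) with LPS, and it was -0.06 and 0.04 without ACAT1 KO line 1. The neighbourhood of Tet3 was low in that line too, as measured against the ACAT1 KO group mean. Relative to the mean of its group, Tet3 in ACAT1 KO line 1 deviated by -0.49 on the log2 scale without stimulation and by -0.33 with LPS, and the 40 genes nearest to it deviated by a median of -0.33 in each state, with 38 of 40 below 0 in each. The other 593 genes compared on chromosome 6 deviated by a median of -0.07 and -0.084 in that line and all 11953 genes by 0.014 and 0.002. In ACAT1 KO line 3 the same neighbours deviated by a median of 0.22 in each state. Deviations of the 3 lines of a group sum to 0 for each gene, so those of the other ACAT1 KO lines are not separate values. In WT lines the medians of these neighbours stayed between -0.062 and 0.041. The 40 tested genes nearest to Tet3 were compared between genotypes too. Their median log2 fold change for ACAT1 KO against WT was 0.11 without stimulation and 0.16 with LPS. The part of these regional shifts in the level of Tet3 was not tested.

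**Figure D4:**
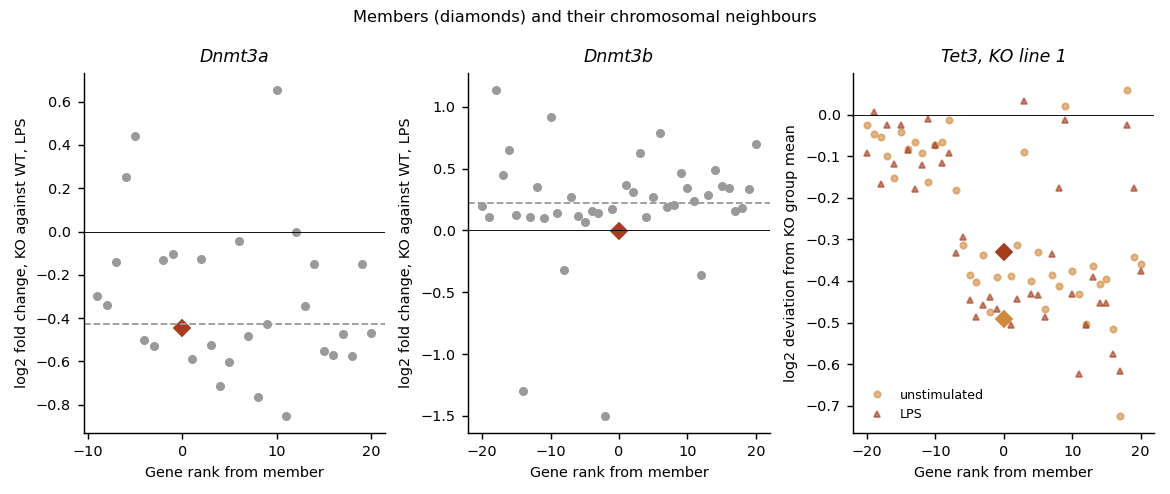
Genes around Dnmt3a and Dnmt3b by rank along the chromosome, with the log2 fold change of ACAT1 KO against WT with LPS (dashed line, median of the neighbours), and genes around Tet3 with their log2 deviation from the ACAT1 KO group mean in ACAT1 KO line 1, unstimulated (circles) and with LPS (triangles). Diamonds mark the named genes. Neighbours of Dnmt3a centre on -0.43 and those of Dnmt3b on 0.22, and 38 of 40 neighbours of Tet3 lie below 0 in each state.

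The genes that work beside the machinery were described in 8 lists, written with earlier results of these data known. Among partners of the methyltransferases, 4 of 8 genes tested passed with LPS in WT cells (2 higher, 2 lower) and 5 of 8 in ACAT1 KO cells (2 higher, 3 lower). Over all genes tested 57.4% passed in WT and 60.7% in ACAT1 KO cells, so these counts are near the background. Dnmt3l, a catalytically inactive cofactor of the de novo enzymes, was 10.1 ± 0.638 CPM (SD, n = 3) in unstimulated WT cells and 35 ± 3.1 CPM with LPS. It rose by a log2 fold change of 1.79 in WT and 2.04 in ACAT1 KO cells. Usp7, a deubiquitinase that binds DNMT1 and UHRF1, rose by 0.59 and 0.61. Cdca7 fell by 1.33 in WT and fell by 1.46 in ACAT1 KO cells on the log2 scale, and its relative Cdca7l fell by 1.10 and fell by 1.03. Both genes belong to the family that works with the remodeller HELLS in DNA methylation.

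Among readers of methylated DNA, 4 of 9 passed in WT cells (2 higher, 2 lower) and 6 of 9 in ACAT1 KO cells (3 higher, 3 lower). Mbd1 rose by a log2 fold change of 1.07 and 1.13 and Zbtb33, the gene of the reader Kaiso, by 1.02 and 0.90. Zbtb4 fell by 1.73 in both genotypes. Counts in this list stood near the background of 57.4% and 60.7%, and its medians, 0.016 and 0.0062, near those of all genes.

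Among the enzymes and regulators of base excision after TET oxidation, 8 of 13 passed in WT cells (4 higher, 4 lower) and 10 of 13 in ACAT1 KO cells (4 higher, 6 lower). The shares over all genes tested were 57.4% and 60.7%. Tdg, the glycosylase that removes oxidised methylcytosine, rose by a log2 fold change of 0.89 (SE 0.0779) in WT and 0.95 (SE 0.0777) in ACAT1 KO cells. Gadd45b, a stress gene linked to demethylation, rose by 6.65 and 7.72. Smug1 rose by 0.77 and 0.95, and Neil1, another glycosylase, fell by 0.63 and fell by 0.73. Between the genotypes 0 of 13 passed in either state by edgeR's quasi-likelihood test, with 3 at an unadjusted p under 0.05 without stimulation and 2 with LPS, where 19.7% and 31.3% of genes were.

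Among TET partners and enzymes of 2-oxoglutarate supply, 7 of 13 passed in WT cells (2 higher, 5 lower) and 8 of 13 in ACAT1 KO cells (2 higher, 6 lower). These counts are near the 57.4% and 60.7% of all genes tested. Ogt, whose product binds TET enzymes, rose by 0.67 and 0.56. Idh1, a cytosolic source of 2-oxoglutarate, fell by 1.00 in both genotypes, and Idh2 fell by 0.32 and fell by 0.35. Of the genes of S-adenosylmethionine supply, 5 of 12 passed in WT cells (3 higher, 2 lower) and 7 of 12 in ACAT1 KO cells (3 higher, 4 lower). Neither count is above the same shares over all genes. Mat2a, the catalytic subunit of the enzyme that makes the methyl donor, rose by 0.57 and 0.55, while its regulatory subunit Mat2b fell by 0.55 and fell by 0.58.

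Genes of S phase and proliferation went down with Dnmt1 and Uhrf1. In WT cells 21 of 24 were called lower and none higher, with a median log2 fold change of -0.56, and in ACAT1 KO cells 22 of 24, with a median of -0.64. Over all genes tested 28% in WT and 31.2% in ACAT1 KO cells were called lower, with medians of -0.018 and -0.026. Ccne1, the gene of cyclin E1, fell by 1.37 in WT and fell by 2.18 in ACAT1 KO cells, and the replication licensing genes Cdt1 and Cdc6 fell by 1.13 and fell by 0.94 in WT cells. Rrm2, a subunit of ribonucleotide reductase, fell by 0.82. In edgeR's quasi-likelihood test of the interaction 0 of the 24 passed, and 5 had an unadjusted p under 0.05, where 8.92% of genes did. The difference between responses was negative for 22 of 24, as for 9697 of 16535 genes. Its median was -0.105, beside -0.038 over all genes tested. The part of proliferation in the levels of Dnmt1 and Uhrf1 was not tested.

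**Figure D5:**
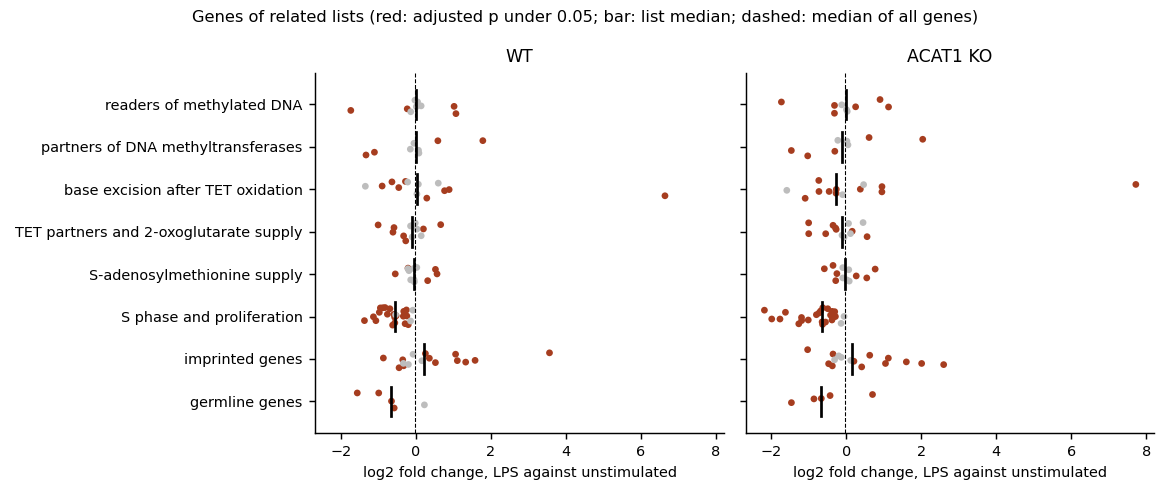
Log2 fold change with LPS in WT (left) and ACAT1 KO cells (right) for the genes of 8 lists, each point a gene, red where the adjusted p was under 0.05, with a bar at the median of the list and a dashed line at the median of all genes tested. S phase and proliferation genes lie to the left, with medians of -0.56 and -0.64, and Gadd45b is the point at 6.65 and 7.72.

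Between the genotypes, 3 list genes, or 2.97% of those tested, passed without stimulation, Bub1 higher and Cdca7l and Mthfd1 lower, where 1.91% of all genes did. With LPS 16 of 99 (16.2%) passed, 6 higher and 10 lower, which is near the 15.1% of all genes. Of the 6 higher, 5 lay on chromosome 2, among them Pcna, the replication clamp that UHRF1 and DNMT1 work beside (log2 fold change 0.43, adjusted p = 0.00414 by edgeR's quasi-likelihood test), Idh3b at 0.44 and Gins1 at 0.41. Among the 10 lower were Cdca7l at -0.27 and Mthfd1 at -0.46, both on chromosome 12. Zbtb38, a reader of methylated DNA on chromosome 9, was lower by -0.32 on the log2 scale. Of the 24 S phase genes 7 passed with LPS, 3 higher and 4 lower, with a median of 0.0036. The 3 higher were Gins1, Bub1 (0.43) and Birc5 (0.46), and the 4 lower were Cdc6 (-0.74), Ccne1 (-0.72), Ccne2 (-0.85) and Cdt1.

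Genes listed as imprinted and germline genes, groups known as targets of DNA methylation, were read last. Expression by allele was not measured, so whether each listed gene is imprinted in this cell line is not known here. Of 42 imprinted genes 16 were tested with LPS, and 12 passed in each genotype, 8 higher and 4 lower, where 57.4% and 60.7% of all genes passed. Blcap rose by a log2 fold change of 1.58 and 1.60, Ube3a by 1.11 and 1.12 and Igf2r by 3.57 and 2.60, while Inpp5f fell by 0.86 and fell by 1.03. Igf2r started from a very low level, 0.44 ± 0.0609 CPM (SD, n = 3) in unstimulated WT and 0.76 ± 0.228 CPM in unstimulated ACAT1 KO cells. Of 20 germline genes known to be silenced by promoter methylation, 5 were tested with LPS, since the other genes were removed as too low or not analysed here. Of these 5, 4 passed in WT cells, all lower, and 5 in ACAT1 KO cells, 1 higher and 4 lower. The shares called lower over all genes tested were 28% in WT and 31.2% in ACAT1 KO cells, and 5 genes are few to set beside them. Tdrkh fell by 0.65 and fell by 0.66 and was not silent in these cells, at 106 ± 3.08 CPM (SD, n = 3) in unstimulated WT and 105 ± 7.72 CPM in ACAT1 KO cells. Slc25a31, at 0.47 ± 0.0537 CPM in unstimulated WT cells, fell by 1.56 and fell by 1.46. Between the genotypes 0 germline genes passed in either state by edgeR's quasi-likelihood test. At an unadjusted p under 0.05 there was 1 without stimulation and 0 with LPS, where 19.7% and 31.3% of all genes were. Of the imprinted genes Inpp5f was lower (-0.28) and H13, on chromosome 2, higher (0.20) with LPS. DNA methylation itself was not measured in these libraries.

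The genes most like each member were taken as the 3 with the highest Pearson correlation of log2 CPM over the 12 libraries, among 11961 genes. These values are descriptions, since the libraries fall into LPS and unstimulated cells and every gene that follows that split correlates. For Tet2 they were Tnfaip2, Sertad2 and Ttyh2, with r of at least 0.998, and 2689 genes had an r over 0.9 with it. For Uhrf1 they were Ccne1, D6Wsu163e and Wdr76, with r of at least 0.991, and for Dnmt1 the genes 4933404O12Rik, Ptpdc1 and Cbx5, with r of at least 0.989. Dnmt1 and Uhrf1 had an r of 0.964 with each other. For Dnmt3a they were Nin, which also lies on chromosome 12, Raet1d and Cebpa, with r of at least 0.956. Tet3 had 1 gene over 0.9, Gm21811, followed by C87436 and Alms1, which both lie on chromosome 6. Dnmt3b had none, and its 3 genes were 4931414P19Rik, Plk4 and Piga with r of at least 0.835. Ranked by Spearman's rho, the first 3 were other genes for all 6 members.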

How the data were processed

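RNA of 3 WT and 3 ACAT1 KO lines, unstimulated or given LPS, was sequenced from libraries made with a strand-marking kit. Per the submitters' processing notes, reads were trimmed with Trimmomatic 0.33, aligned to GRCm38 with HISAT2 and quantified with StringTie. For each state the authors deposited a table of unnormalized counts, whole numbers by gene. The step that gave whole counts, and its use of strand, is not given in the sources used here. The tables also hold the authors' log2 values per library (12 columns), log2 fold changes, p-values and a moderated score, none used.

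Repeated entries (59 and 57) were removed, leaving 17544 and 17874 genes. Listed genes have at least 4 counts in at least 5 of 6 libraries of their state. Rows with no gene name held under 0.001% of counts. Gene positions and lengths are from the GENCODE annotation of GRCm38.

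Tests used edgeR 4.0.16 (R 4.3.3, filterByExpr, TMM, two-sided quasi-likelihood test, Benjamini-Hochberg adjusted p under 0.05). Genotypes were compared within each state, and LPS responses and their interaction over all 12 libraries and the genes of both tables. On simulated counts with 200 genes changed by 1 on the log2 scale, 143 were called without stimulation and 195 with LPS between genotypes, 179 for LPS in WT cells and 135 for the interaction. Unchanged genes called in error numbered 9, 24, 14 and 8 in the same order. Smaller changes, such as those of the members between genotypes, were not simulated. Alternatives were DESeq2 1.42.0, limma-voom (limma 3.58.1), other scalings and filters, robust dispersion, a single fit of all libraries, offsets for gene length and GC content, a term for the libraries with more other-strand counts, a replicate block and each library left out. The block with that term was added after the data were seen.

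Genes named are the members, Acat1, up to 4 called genes of a list with the smallest p in a comparison, and the 3 genes most like each member. The members, lists and rules were chosen with earlier results of these data known. Values of list genes past the 4 with the smallest p, and list genes picked out by chromosome, were named after their values were seen. Deviations of unstimulated and LPS libraries with the same genotype and number correlated from 0.413 to 0.622 over 6 pairs, so the number was taken as the line, which the labels do not state. The lines are separately derived populations, and p-values between genotypes within a state measure the spread between them. The main fits of the LPS responses and the interaction held no term for the line. Their p-values measure the spread of levels within groups, not that of responses between lines. The part of counting error in these spreads was not worked out gene by gene.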

Additional observations from a re-analysis of the deposited data

Results flagged for a closer look

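Gadd45b, a stress-induced gene of the base excision list, was the gene of the lists whose response to LPS differed between the genotypes in the test of the interaction (log2 difference 1.08, SE 0.172, adjusted p = 0.0383 by edgeR's quasi-likelihood test, higher response in ACAT1 KO cells). It was 1.51 ± 0.318 CPM (SD, n = 3) in unstimulated WT and 0.78 ± 0.0808 CPM in ACAT1 KO cells, and 150.3 ± 9.73 and 166 ± 8.49 CPM with LPS. Between the genotypes it did not pass without stimulation (adjusted p = 0.0789) or with LPS (adjusted p = 0.126, both by the same test).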

How the results depend on the processing

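The 3 calls for Tet2, Dnmt1 and Uhrf1 with LPS held in both genotypes in each of 12 other settings and 12 fits without a library, with log2 fold changes over the settings of 2.10 to 2.61 for Tet2, -1.05 to -0.73 for Dnmt1 and -1.33 to -0.64 for Uhrf1. Upper-quartile scaling moved the median of all genes with LPS to -0.226 in WT and -0.175 in ACAT1 KO cells and the called genes from 4850 higher and 4638 lower to 3628 and 6681 in WT, and from 4871 and 5166 to 3921 and 6560 in ACAT1 KO cells. Under this scaling Dnmt3b was -0.17 in WT and -0.13 in ACAT1 KO cells with LPS, -0.0144 and 0.0286 between genotypes without and with LPS, and 0.0411 in the interaction, Tet3 was -0.13 in ACAT1 KO cells with LPS and Dnmt3a 0.0212 in the interaction, and the interaction called 10 higher and 13 lower against 8 and 23.

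Length and GC offsets gave reversed, uncalled values for Tet2 (0.0763) and Tet3 (0.0395) between genotypes with LPS, Dnmt3b (0.0543 there and 0.010 in the interaction), Tet3 in ACAT1 KO cells with LPS (-0.10) and Dnmt3a in the interaction (0.0035). With the replicate block as well these were 0.0729, 0.0329, 0.0665, 0.0168 for Dnmt3b in the interaction and -0.0878 for Tet3, with Dnmt3a in the interaction not reversed. With both, Tet3 passed in WT cells with LPS (-0.30, adjusted p = 0.0106 by edgeR). With offsets the genotypes differed at 1149 genes higher and 1081 lower with LPS, against 977 and 1504. Between genotypes Dnmt3b without stimulation was -0.0023 with all libraries in a single fit, -0.0014 with limma-voom and -0.0104 with the other-strand term, and with LPS 0.0053 with relative log expression, 0.0049 with DESeq2, 0.0030 without a filter and 0.0106 with the replicate block. Tet3 in WT cells with LPS was 0.13 with the other-strand term. The cause was not tested.

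Members called between genotypes without stimulation were 1 (against 0) with all libraries in a single fit and with DESeq2, and 0 to 1 without a library, 1 without WT line 3. With LPS they were 1 (against 2) with offsets, with or without the block, and 0 to 3 without a library, 0 without WT line 2 and 1 without ACAT1 KO line 1 or 2. In the interaction they were 1 (against 0) with DESeq2 and with the block and other-strand term, and 0 to 0 without a library. Dnmt3a in WT cells with LPS also lost its call with limma-voom (-0.27) and with the block and other-strand term (-0.11).

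Genes called between genotypes without stimulation numbered 314, and 1353 with all libraries in a single fit, 1721 with DESeq2, 475 with at least 10 counts in every library, 522 with robust dispersion, 88 with offsets, 151 with the replicate block, 160 with both, 664 with the other-strand term and 7 to 522 without a library (17, 7 and 522 without WT lines 1, 2 and 3, and 24, 34 and 10 without ACAT1 KO lines 1, 2 and 3). With LPS they numbered 2481, and 867 to 2245 without a library. In the interaction they numbered 31, and 333 with DESeq2, 11 with limma-voom, 3 with offsets, 288 with the replicate block by line, 214 with both, 69 with the other-strand term, 457 with block and term and 2 to 41 without a library.

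Without a library, values turned sign within these ranges: Dnmt3b from -0.11 to 0.0725 and -0.13 to 0.0820 between genotypes without and with LPS, -0.0878 to 0.17 and -0.0439 to 0.0821 with LPS in WT and ACAT1 KO cells, and -0.15 to 0.12 in the interaction, Tet3 from -0.20 to 0.0352 between genotypes with LPS, -0.18 to 0.17 with LPS in ACAT1 KO cells and -0.0828 to 0.27 in the interaction, Tet2 from -0.11 to 0.0101 between genotypes with LPS, Uhrf1 from -0.0083 to 0.16 between genotypes without stimulation and Dnmt3a from -0.14 to 0.0716 in the interaction.

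The replicate number is shared by WT and ACAT1 KO libraries. Their deviations at the same number correlated from 0.055 to 0.44 without stimulation and from -0.092 to 0.275 with LPS. The highest of these lay above the lowest of the pairs taken as the same line across states (0.413). The number was not taken to pair the genotypes, and the labels do not settle it. As a replicate block it gave Dnmt1 an adjusted p of 0.0223 with LPS (-0.31, edgeR) and changed no other call between genotypes. The block by line, across states and with no other change, changed no call of a member. The other-strand term was not fitted between genotypes with LPS, since those libraries are all unstimulated. With 3 lines a group, an exact permutation test cannot go below 0.1. Levels per kilobase of the longest transcript gave the same order of genes except for Dnmt3b and Tet2 in unstimulated ACAT1 KO cells.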
